A study of Mus musculus with 7 samples.

Results

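Genes that mark the pancreas, stomach and intestine were followed in mouse bladder. The set listed 32 genes, and 29 of them had at least 1 probe set that the platform annotation assigns to that gene alone. Pnlip, Ins1 and Sis had none and have no value here. Those 29 genes had 42 probe sets, out of 45037 probe sets and 18193 genes in the series, and the probe set with the highest mean over the 7 arrays stood for each gene.

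The arrays were Affymetrix mouse 430 2.0 arrays, each hybridised with RNA after 2 rounds of amplification. They covered 3 adult male bladders (Theiler stage 28), 3 male bladders of postnatal day 1, or P1 (Theiler stage 27), and 1 pool of whole newborns of the same day, made from 4 males and 4 females. All animals were FVB/N mice. The bladder donors, adult and P1, carried the SMGA/EGFP transgene, a green fluorescent reporter driven by the promoter of the smooth muscle gamma-actin gene Actg2, and the pooled newborns were wild type. The pooled sample is titled as bladders, yet its source label and dissection note say that entire mice were used, which is how it is read here. Storage differed with stage, liquid nitrogen for adult bladders and a freezer for P1 bladders, and the effects of each cannot be told apart. Genotype and the sexes used also differed between the bladders and the whole newborn, and age differed between adult bladder and the whole newborn. In those comparisons their parts cannot be told apart from that of the organ. Nothing in the labels says how the donors relate to litters, and each p-value covers only the variation among these samples.

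The epithelium of the bladder, the pancreas, the stomach and the intestine all arise from the endoderm of the embryonic gut tube. Each organ then switches on its own secretory and absorptive genes: digestive proenzymes in acinar cells, hormones in islets, trefoil peptides and gastrokines in gastric mucous cells, and disaccharidases, lipid carriers and mucins in the intestine. The bladder lining instead becomes urothelium, a barrier covered by uroplakins. A whole newborn contains all of these organs, whereas a dissected bladder is made mainly of urothelium, smooth muscle and stroma.

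Promoters are shown for 5 genes on which the results turn. Cela1 was the pancreatic enzyme gene with a high signal in every bladder, Cela2a and Cela3b are its dim relatives, Lct differed between the stages, and Fabp2 is an enterocyte gene that stayed low in bladder. Each line holds the 150 bases before the RefSeq start of the gene in GRCm38, 5′ to 3′ on the strand of the gene. Capitals mark the letters CACCTG and TTTCCC, the paired boxes bound by the acinar complex PTF1, GATAA, bound by GATA factors, and TTTAC, bound by CDX factors, on either strand.
Cela1, chr15:100687921-100688070 (minus strand): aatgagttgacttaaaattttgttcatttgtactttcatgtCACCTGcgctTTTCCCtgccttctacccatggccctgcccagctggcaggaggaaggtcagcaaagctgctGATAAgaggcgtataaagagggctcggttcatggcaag
Cela2a, chr4:141826006-141826155 (minus strand): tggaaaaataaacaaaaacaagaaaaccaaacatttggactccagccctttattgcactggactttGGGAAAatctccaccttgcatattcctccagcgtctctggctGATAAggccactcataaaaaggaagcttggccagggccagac
Cela3b, chr4:137430521-137430670 (minus strand): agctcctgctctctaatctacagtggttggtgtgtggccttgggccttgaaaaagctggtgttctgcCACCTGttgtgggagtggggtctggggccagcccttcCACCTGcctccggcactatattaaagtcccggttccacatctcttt
Lct, chr1:128328319-128328468 (minus strand): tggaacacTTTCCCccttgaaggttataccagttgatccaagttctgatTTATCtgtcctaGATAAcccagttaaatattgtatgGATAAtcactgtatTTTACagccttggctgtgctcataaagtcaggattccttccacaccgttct
Fabp2, chr3:122894922-122895071 (+ strand): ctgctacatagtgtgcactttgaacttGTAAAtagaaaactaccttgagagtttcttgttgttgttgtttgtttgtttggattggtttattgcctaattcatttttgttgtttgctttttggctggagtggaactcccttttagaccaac
In the Cela1 window, CACCTG began 109 bases before the start, TTTCCC 99 bases before it and GATAA 38 bases before it. Cela2a held TTTCCC on the other strand and GATAA, whereas Cela3b held CACCTG at 2 places and neither of the other pancreatic letters. Lct held GATAA at 3 places on both strands, TTTAC once and TTTCCC once, and Fabp2 held TTTAC once, on the other strand. Among all 32851 promoters of the table, cut to the same window, 10.6% held CACCTG, 13.3% held TTTCCC, 13.3% held GATAA and 16.8% held TTTAC. The matches describe letters only. Of the 32 listed genes, 25 had a promoter in the table.

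Most pancreas, stomach and intestine genes were far lower in bladder than in the whole newborn, and few exceeded the array median in every bladder of a stage. Values are array intensities in arbitrary units, and the table held no detection calls, so the median of each array served as the limit for a dim probe set. That median was 226, 312 and 234 on the adult arrays, 263, 209 and 290 on the P1 arrays and 434 on the whole newborn array. On the whole newborn array 27 of the 29 genes lay above it, all but Pgc and Cdx1, where the share among all probe sets was 50% by construction. On all 3 adult arrays 2 genes did, Cela1 and Tff1, with 43% of all probe sets. The same 2 were the genes above it on all 6 bladder arrays. On all 3 P1 arrays 5 genes did, Cela1, Cpb1, Tff1, Lct and Muc13, with 42.2% of all probe sets. No bladder array held 17 of the genes above its median, which was so for 36.5% of all probe sets.

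Whole newborn signal exceeded every bladder array for 28 of 29 genes, all but Pgc, compared with 31.2% of all probe sets. Differences are given as bladder minus whole newborn in log2(intensity + 49), where the added 49 understates changes of dim genes. All 29 differences were negative at both stages as deposited, with a median of -5.11 for adult bladder and -4.02 for P1 bladder, while the medians over all 45037 probe sets were -0.27 and -0.24. Fitted without a filter by limma, with a Benjamini-Hochberg adjusted p under 0.05, 22 of 29 genes were lower in adult bladder, a call made for 5.42% of all probe sets. By the same fit 20 of 29 were lower in P1 bladder (4.13% of all probe sets), and none was higher at either stage (2.34% of all probe sets for adult and 1.25% for P1 bladder). The spread came from the bladder arrays, because the whole newborn was a single array that was assumed to vary like them. In bulk tissue, fewer cells of a type and less RNA per cell cannot be told apart.

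The main fit kept probe sets above the array median on at least 1 array, and there 27 genes were tested, with 22 lower in adult bladder (6.54% of all tested probe sets) and 21 lower in P1 bladder (4.56%). None was higher, against 3.95% and 2.07% of all tested probe sets. Of the 29 genes, 15 passed that filter through the whole newborn array alone, as did 2.97% of all probe sets, and so had to differ, which makes these counts a description. Centring each array on its median moved the differences of all probe sets together. Their median was then 0.46 for adult and 0.51 for P1 bladder, against -0.21 and -0.18 as deposited. Across all tested probe sets this turned 1182 higher and 1959 lower calls for adult bladder into 2556 and 1144, and 620 and 1366 for P1 bladder into 1575 and 807. Under centring 26 of the 29 differences stayed negative in adult bladder and 27 in P1 bladder, with medians of -4.45 and -3.33. The exceptions were Pgc and Cdx1, dim on every array, and Cela1 in adult bladder. Quantile normalization turned only Pgc in P1 bladder, to 0.16.

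**Figure D1:**
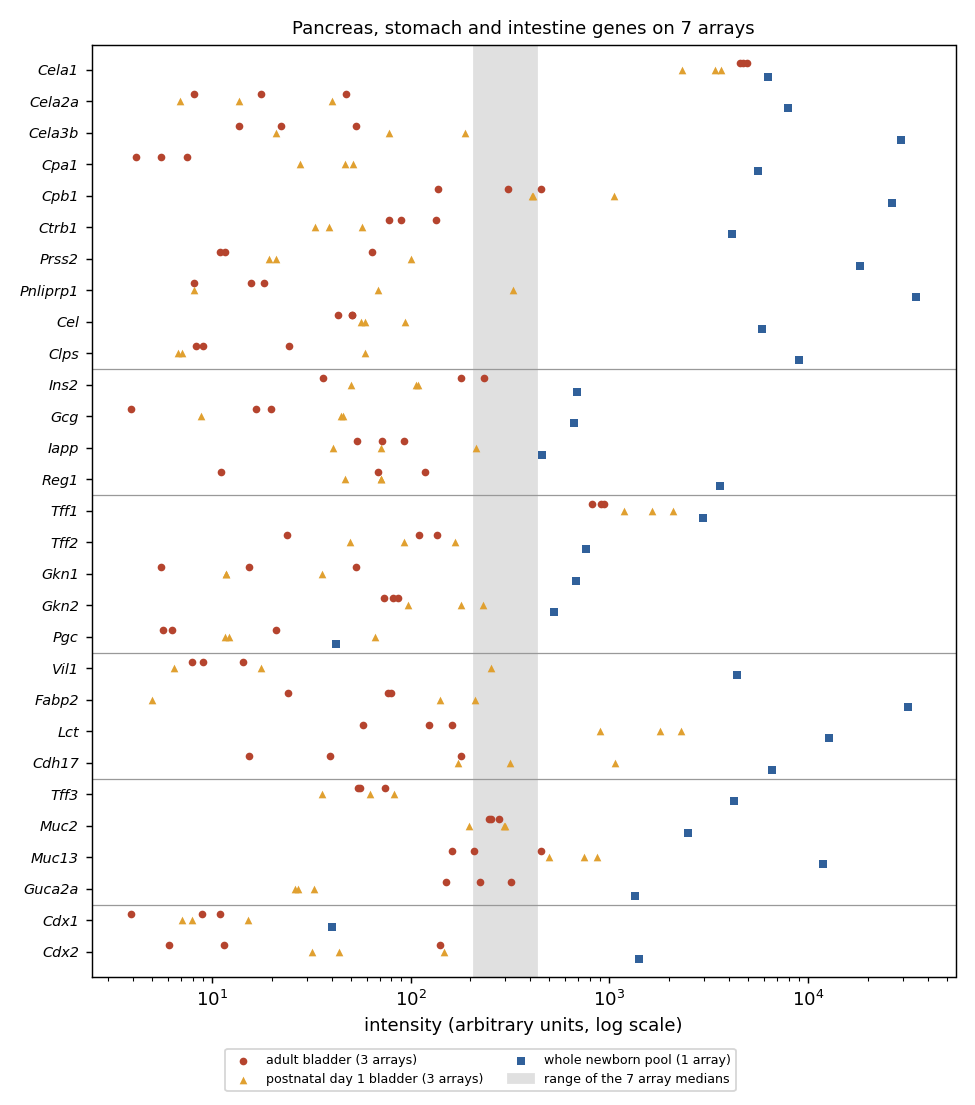
Intensity of the 29 genes on the 7 arrays (log scale), with adult bladders as circles, P1 bladders as triangles, the whole newborn as squares and the range of the array medians, 209 to 434, as a grey band. Horizontal lines part the role groups. Cela1 and Tff1 sit right of the band on every bladder array, and Lct and Muc13 do so on the P1 arrays.

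The bladder samples carried the marks of bladder. All 10 urothelial markers and all 8 smooth muscle markers lay above the array median on all 6 bladder arrays, against 38% of all probe sets. At each stage 7 and 6 of them were higher than in the whole newborn. Among all tested probe sets 3.95% were higher in adult and 2.07% in P1 bladder. Some libraries stood apart. Adult replicates 1 and 3 had 9 and 10 of 12 male accessory gland markers above the median, with summed levels of 11108 and 11303, whereas adult replicate 2 had 0 with a sum of 635, and the P1 arrays had 0 with sums of 474 to 734. P1 replicate 3 had 6 of 8 liver markers above the median, against 1 to 3 on the other bladder arrays, and Alb, the serum albumin gene, stood at 3942 there. Summed liver levels ranged over 6567 to 9757 in adult bladder and 1939 to 11968 in P1 bladder, and were 472435 in the whole newborn. Adult replicate 2 and P1 replicate 3 also had the highest spike-in signals of their groups, 2.16 and 1.5 times the lowest array. Replicates of a stage correlated at 0.931 to 0.971 over all probe sets, as a description.

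Most pancreatic enzymes were dim in bladder, apart from Cela1 on all 6 bladder arrays and Cpb1 on 5 of them. Of 11 listed genes 10 were on the array, and 9 of these were lower than in the whole newborn at both stages. Among all tested probe sets 6.54% were lower in adult and 4.56% in P1 bladder. Of the 10 genes, 7 passed the filter through the whole newborn array alone. Cela1 encodes a pancreatic elastase, a serine protease. It had 4956, 4539 and 4705 units in adult bladder, 3402, 3644 and 2329 units in P1 bladder and 6314 units in the whole newborn. Every bladder array was therefore at 36.9% to 78.5% of the whole newborn level, and the adult arrays all lay above the P1 arrays. Its difference from the whole newborn was -0.41 ± 0.37 (SE) for adult bladder (limma, adjusted p = 0.53) and -1.03 ± 0.37 for P1 bladder (adjusted p = 0.14). Centring the arrays on their medians turned the adult difference to 0.26. Adult minus P1 bladder was 0.62 ± 0.26 (limma, adjusted p = 0.19), so the gap between the stages did not pass the test although the arrays did not overlap. Cela1, like Tff1 and Lct, had only 1 probe set naming it alone, so no other probe set could be set beside it.

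The relatives of Cela1 did not share its signal. Cela2a, another elastase, had 17.6, 8.08 and 47.1 units in adult bladder, 13.7, 6.92 and 40.2 units in P1 bladder and 7934 units in the whole newborn. Cela3b, a further family member, had 13.6, 22.2 and 52.9 units in adult bladder, 21.1, 188 and 78.0 units in P1 bladder and 29243 units in the whole newborn. Neither gene lay above the median on any bladder array by these probe sets, and stages overlapped for both. The log2 differences of Cela2a were -6.80 ± 0.66 for adult and -6.88 ± 0.66 for P1 bladder (limma, adjusted p = 0.00053 and 0.00072). Those of Cela3b were -8.57 ± 0.74 and -7.83 ± 0.74 (limma, adjusted p = 0.00031 and 0.00068). One other probe set of Cela3b disagreed on the bladder signal, with 241, 238 and 240 units in adult bladder, 260, 514 and 430 units in P1 bladder and 5932 units in the whole newborn. It lay above the median on 4 of 6 bladder arrays, and the fold therefore depends on the probe set.

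The lipid-digesting genes were lower at both stages, and Pnliprp1 had the largest drop of the 29 genes as fitted. Pnliprp1, a lipase-related protein of the acinar cell, had 18.4, 8.10 and 15.8 units in adult bladder, 8.17, 68.9 and 328 units in P1 bladder and 35084 units in the whole newborn. P1 replicate 3, the array with the liver transcripts, was the highest bladder array and the only one above its median; the part of that in the signal was not tested. Clps, the colipase cofactor of pancreatic lipase, had 24.3, 9.04 and 8.28 units in adult bladder, 59.1, 6.78 and 7.09 units in P1 bladder and 9003 units in the whole newborn. Cel, the bile-salt-stimulated lipase, had 50.5, 50.9 and 42.9 units in adult bladder, 58.8, 56.2 and 93.8 units in P1 bladder and 5843 units in the whole newborn. Bladder arrays of both stages lay below the median for Clps and Cel. The adult and P1 differences were -9.12 ± 0.92 and -8.01 ± 0.92 for Pnliprp1, -7.18 ± 0.68 and -7.02 ± 0.68 for Clps, and -5.92 ± 0.57 and -5.65 ± 0.57 for Cel. All 6 were called, with limma adjusted p between 0.00049 and 0.0013.

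Proteases and carboxypeptidases followed the same pattern, apart from a faint signal of Cpb1. Cpb1 encodes carboxypeptidase B, which removes basic residues from the ends of peptides. It had 311, 137 and 453 units in adult bladder, 1052, 411 and 413 units in P1 bladder and 26545 units in the whole newborn. All P1 arrays and adult replicates 1 and 3 exceeded the median, and the stages overlapped, with an adult minus P1 difference of -0.93 ± 0.51 (limma, adjusted p = 0.31). Adult replicates 1 and 3 were also the arrays with gland transcripts, whose part in this signal was not tested. Against the whole newborn the differences were -6.36 ± 0.69 for adult and -5.43 ± 0.69 for P1 bladder (limma, adjusted p = 0.00089 and 0.0023).

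Cpa1, carboxypeptidase A, had 5.55, 7.53 and 4.14 units in adult bladder, 51.2, 27.9 and 46.6 units in P1 bladder and 5621 units in the whole newborn. Ctrb1, chymotrypsinogen B, had 90.0, 77.8 and 135 units in adult bladder, 56.9, 33.2 and 38.9 units in P1 bladder and 4131 units in the whole newborn. The stages did not overlap for either gene and ran in opposite directions, but all of these bladder values lay under the array median. Prss2, an anionic trypsinogen, had 11.7, 64.3 and 11.0 units in adult bladder, 101, 21.1 and 19.4 units in P1 bladder and 18379 units in the whole newborn. Adult and P1 differences were -6.69 ± 0.61 and -5.97 ± 0.61 for Cpa1, -4.82 ± 0.58 and -5.51 ± 0.58 for Ctrb1, and -7.95 ± 0.72 and -7.68 ± 0.72 for Prss2. Each was called at both stages, with limma adjusted p between 0.00041 and 0.0014. The 3 other probe sets of Prss2 gave smaller drops, from -6.25 to -4.60 in adult and from -6.21 to -4.62 in P1 bladder, and the other of Clps gave -4.46 and -4.62. All of these were called too, so the direction was shared but the fold depends on the probe set. They passed the filter through the whole newborn array alone and so had to differ. Trypsinogens and elastases have close paralogs. Of the 29 probe sets shown, 5 are of the type whose probes can match other genes (suffix _x), Prss2 and Cela3b among them, and 1, that of Muc13, is of the type shared by several transcripts (suffix _s).

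**Figure D2:**
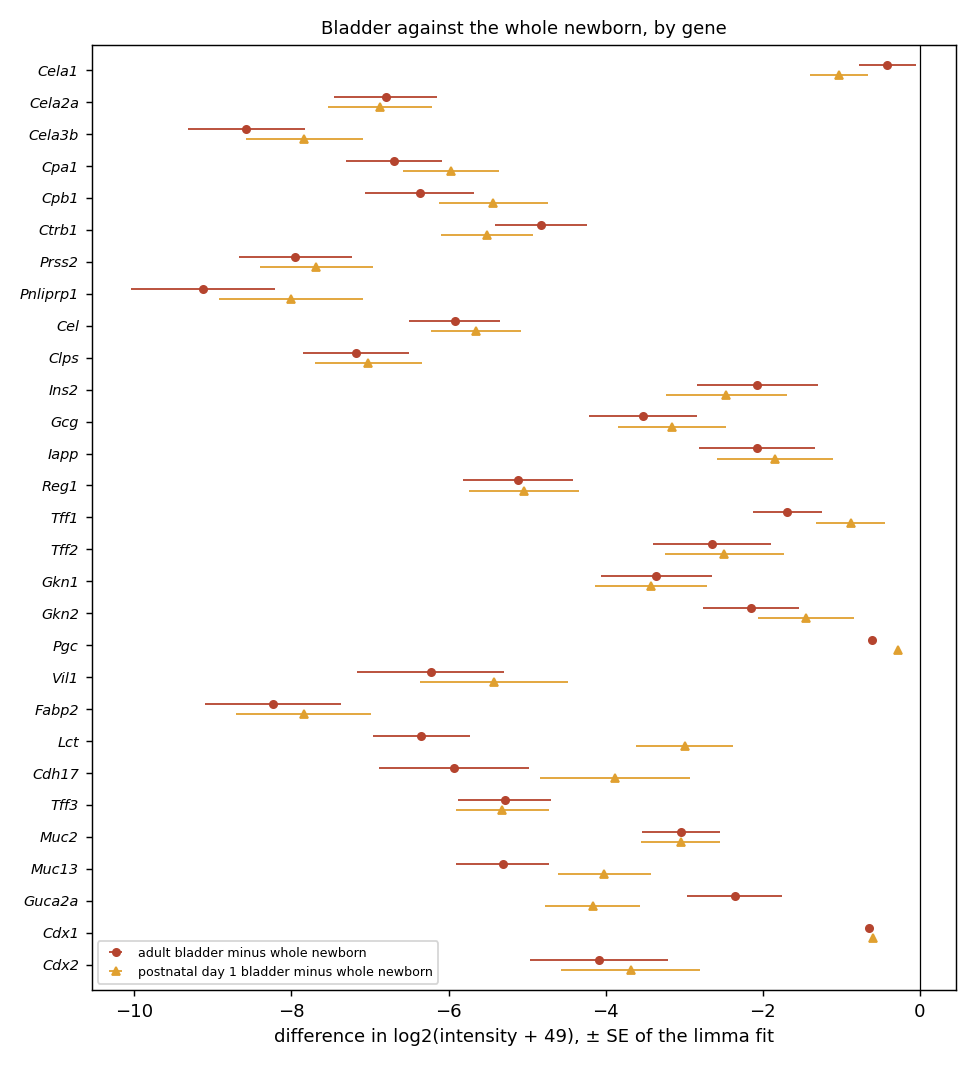
Difference of each of the 29 genes from the whole newborn in log2(intensity + 49), with circles for adult bladder and triangles for P1 bladder. Bars are ± 1 SE of the main limma fit and are missing for Pgc and Cdx1, which did not pass its filter. All points lie left of 0, from -9.12 for Pnliprp1 in adult bladder to -0.28 for Pgc in P1 bladder, and the stages part most for Lct.

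Islet and acinar peptides were dim in bladder, and for the islet hormones the whole newborn signal was itself modest. Of 5 listed genes 4 were on the array, and 2 of them were lower at both stages, against 6.54% and 4.56% of all tested probe sets. Of the 4, 3 passed the filter through the whole newborn array alone. Gcg, the glucagon precursor, had 19.8, 16.7 and 3.91 units in adult bladder, 45.5, 8.85 and 44.7 units in P1 bladder and 664 units in the whole newborn. Reg1, a regenerating-family protein of acinar cells, had 11.2, 118 and 68.8 units in adult bladder, 71.0, 70.9 and 46.7 units in P1 bladder and 3614 units in the whole newborn. Neither reached the median of any bladder array. For adult and P1 bladder the differences were -3.52 ± 0.69 and -3.16 ± 0.69 for Gcg (limma, adjusted p = 0.013 and 0.028, the P1 call being lost under median centring, under quantile normalization and without adult replicate 1, adult replicate 3 or P1 replicate 2), and -5.11 ± 0.70 and -5.04 ± 0.70 for Reg1 (limma, adjusted p = 0.0025 and 0.0036). Ins2, an insulin gene, and Iapp, islet amyloid polypeptide, had 692 and 459 units in the whole newborn and differences between -1.84 and -2.46, none of which passed the test (limma, adjusted p 0.097 to 0.18). The result for Iapp depends on the probe set. Of its 3 others, 1 was lower in adult and P1 bladder, by -2.89 and -2.998 (limma, adjusted p = 0.041 and 0.048), and another in adult bladder, by -3.53 (adjusted p = 0.034), but not in P1 bladder (-2.88, adjusted p = 0.086). The last was dim on every array and did not pass the filter. Ins2 ranged from 36.2 to 233 units in adult bladder and 49.9 to 109 units in P1 bladder, and Iapp from 53.5 to 92.4 and 40.6 to 214 units.

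Among the stomach genes the trefoil peptide Tff1 was measured in every bladder. Tff1 is a small secreted peptide that protects mucous epithelia. It had 820, 909 and 945 units in adult bladder, 1639, 2091 and 1180 units in P1 bladder and 2980 units in the whole newborn. Adult bladders held 27.5% to 31.7% of the whole newborn level and P1 bladders 39.6% to 70.2%, with every P1 array above every adult array. The adult difference from the whole newborn was -1.69 ± 0.44 (limma, adjusted p = 0.040) and the P1 difference was -0.88 ± 0.44 (adjusted p = 0.28). The adult call was lost under median centring and without adult replicate 1, adult replicate 3 or P1 replicate 1, with limma adjusted p between 0.060 and 0.24. Adult minus P1 bladder was -0.81 ± 0.31 (limma, adjusted p = 0.15), so the stage difference did not pass the test.

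The other stomach genes gave no bladder signal of that kind. Gkn1, a gastrokine of gastric surface cells, had 5.52, 15.4 and 53.2 units in adult bladder, 11.8, 11.8 and 35.7 units in P1 bladder and 678 units in the whole newborn. Its differences of -3.36 ± 0.71 for adult and -3.42 ± 0.71 for P1 bladder were called (limma, adjusted p = 0.018 and 0.023). Median centring ended both calls, as did leaving out adult replicate 1 for the adult call and, for the P1 call, quantile normalization or leaving out P1 replicate 2 (limma, adjusted p 0.052 to 0.11). Tff2, a second trefoil peptide, and Gkn2, a second gastrokine, ranged over 23.8 to 135 and 73.9 to 86.8 units in adult bladder and 49.4 to 167 and 97.3 to 232 units in P1 bladder, with 761 and 525 units in the whole newborn. They were not called at either stage (limma, adjusted p 0.056 to 0.20). Gkn1 and Tff2 passed the filter through the whole newborn array alone and so had to differ. Pgc, the zymogen progastricsin, reached no array's median, the whole newborn included, with 5.67 to 21.1 units in adult bladder, 11.6 to 66.4 units in P1 bladder and 42.3 units in the whole newborn.

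Lct separated the stages of bladder and was the only gene of the set to do so in the main fit. Lct encodes lactase, the milk-sugar enzyme of the newborn intestinal brush border. It had 161, 57.3 and 124 units in adult bladder, 1808, 2294 and 899 units in P1 bladder and 12711 units in the whole newborn. No adult array lay above its median and all 3 P1 arrays did, at 7.07% to 18.05% of the whole newborn level. Adult minus P1 bladder was -3.35 ± 0.45 (limma, adjusted p = 0.0038), and 6 genes of the set were tested in that comparison of the 6 bladder arrays, where 7.85% of all tested probe sets were called, 4.12% as lower and 3.73% as higher in adult bladder. Against the whole newborn, Lct was lower by -6.35 ± 0.62 in adult bladder (limma, adjusted p = 0.00053) and by -2.99 ± 0.62 in P1 bladder (adjusted p = 0.023, or 0.080 after median centring).

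The Lct call rests on few arrays. The filter asked for 3 of 6 bladder arrays above the median, which Lct met through its 3 P1 arrays, so it was no longer tested once any P1 array was left out. Without the filter it was called over all 6 arrays (limma, adjusted p = 0.011), a call made as lower for 1.52% of all probe sets. With 1 array left out as well, its difference stayed between -3.73 and -3.07, and the limma adjusted p lay between 0.021 and 0.051, just over the threshold without adult replicate 3 or P1 replicate 2. P1 replicate 3, the array with liver transcripts, had the lowest Lct of the P1 arrays, and the gland-rich adult replicates 1 and 3 had more Lct than replicate 2.

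The other brush border and junction genes of the list were lower in bladder at both stages. Fabp2, the intestinal fatty acid binding protein, had 76.8, 24.2 and 79.8 units in adult bladder, 141, 210 and 5.01 units in P1 bladder and 31839 units in the whole newborn. Only P1 replicate 2 edged over its median, and no bladder array held more than 0.66% of the whole newborn level. Vil1, villin of the microvilli, had 14.4, 7.97 and 9.05 units in adult bladder, 255, 17.7 and 6.48 units in P1 bladder and 4406 units in the whole newborn. Cdh17, the liver-intestine cadherin, had 15.4, 179 and 39.1 units in adult bladder, 1063, 173 and 318 units in P1 bladder and 6576 units in the whole newborn. P1 replicate 1 was the highest bladder array for both Vil1 and Cdh17, and for Cpb1 as well; what sets this array apart was not tested.

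For these genes the adult and P1 differences were -8.24 ± 0.86 and -7.85 ± 0.86 for Fabp2 (limma, adjusted p = 0.00075 and 0.0012) and -6.23 ± 0.94 and -5.42 ± 0.94 for Vil1 (limma, adjusted p = 0.0039 and 0.010). For Cdh17 they were -5.93 ± 0.95 and -3.88 ± 0.95 (limma, adjusted p = 0.0053 and 0.044), and the P1 call was lost without P1 replicate 2 or 3, without adult replicate 1 or 3, with the smaller pseudocount, and without the filter (adjusted p = 0.059). Cdh17 and Vil1 did not pass the filter of the comparison between stages, where adult and P1 arrays overlapped. In the comparisons with the whole newborn, Vil1 passed the filter through the whole newborn array alone and so had to differ.

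**Figure D3:**
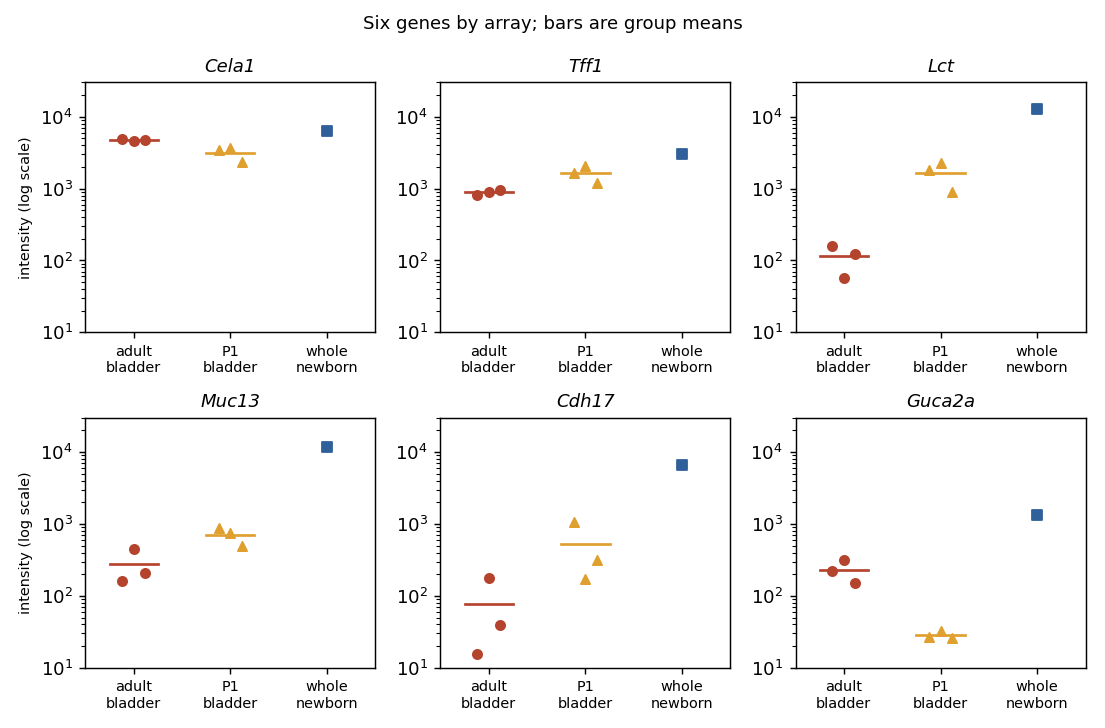
Intensity (log scale) of 6 genes by array, with circles for adult bladder, triangles for P1 bladder, a square for the whole newborn and bars at the group means. Cela1 (2329 to 6314) and Tff1 (820 to 2980) are high on every array, Lct is split between adult (57.3 to 161) and P1 bladder (899 to 2294), and Guca2a is split the other way (151 to 320 and 26.1 to 32.7).

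Mucins, the goblet peptide and guanylin were all lower in bladder than in the whole newborn, 4 of 4 genes at both stages. Among all tested probe sets 6.54% were lower in adult and 4.56% in P1 bladder. The goblet peptide gene Tff3 passed the filter through the whole newborn array alone. Muc13 is a membrane-bound mucin of epithelial surfaces. It had 161, 451 and 208 units in adult bladder, 867, 748 and 498 units in P1 bladder and 11863 units in the whole newborn. All P1 arrays exceeded their medians and all adult arrays, of which replicate 2 alone lay above its median. Adult minus P1 bladder was -1.30 ± 0.43 (limma, adjusted p = 0.11), which became a call without adult replicate 2 (adjusted p = 0.038). Against the whole newborn Muc13 differed by -5.31 ± 0.59 in adult and -4.02 ± 0.59 in P1 bladder (limma, adjusted p = 0.00094 and 0.0047). Its bladder signal rests on that 1 probe set. The other probe set of Muc13 had 8.36, 91.5 and 21.2 units in adult bladder, 68.9, 38.2 and 10.9 units in P1 bladder and 965 units in the whole newborn. By that probe set no bladder array lay above its median and the stages overlapped, while the differences from the whole newborn were -3.62 and -3.57 (limma, adjusted p = 0.018 and 0.026).

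Guca2a encodes guanylin, the peptide that activates the intestinal guanylate cyclase receptor. It had 223, 320 and 151 units in adult bladder, 27.2, 32.7 and 26.1 units in P1 bladder and 1346 units in the whole newborn. Adult bladders were higher than P1 bladders without overlap, although only adult replicate 2 lay above its median. The gene did not pass the filter of the comparison between stages. Without the filter, adult minus P1 bladder was 1.81 (limma, adjusted p = 0.042, with 2.79% of all probe sets called and 1.27% as higher), and with any 1 array left out the call was lost (adjusted p 0.058 to 0.13). Relative to the whole newborn it was lower by -2.36 ± 0.60 in adult bladder (limma, adjusted p = 0.038) and by -4.17 ± 0.60 in P1 bladder (adjusted p = 0.0043). The adult call was lost under median centring and without adult replicate 1, adult replicate 3, P1 replicate 1 or P1 replicate 2 (adjusted p 0.051 to 0.12).

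Muc2, the secreted gel-forming mucin of goblet cells, had 249, 279 and 254 units in adult bladder, 296, 196 and 299 units in P1 bladder and 2499 units in the whole newborn. It lay above the array median on 2 adult and 2 P1 arrays. Its levels overlapped between stages, with an adult minus P1 difference of 0.00 ± 0.39 (limma, adjusted p above 0.99). Tff3, the goblet cell trefoil peptide, had 55.3, 74.4 and 54.4 units in adult bladder, 62.5, 35.8 and 82.6 units in P1 bladder and 4236 units in the whole newborn. Tff3 thus stayed under the median on every bladder array, unlike its family member Tff1. Differences for adult and P1 bladder were -3.04 ± 0.50 and -3.05 ± 0.50 for Muc2 (limma, adjusted p = 0.0058 and 0.0080) and -5.28 ± 0.59 and -5.32 ± 0.59 for Tff3 (limma, adjusted p = 0.00099 and 0.0012).

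The intestinal transcription factors, which drive hindgut identity in the embryo, were below the median on every bladder array. Cdx2 had 11.5, 6.06 and 141 units in adult bladder, 43.4, 31.8 and 148 units in P1 bladder and 1411 units in the whole newborn. The differences of Cdx2 were -4.09 ± 0.88 for adult and -3.68 ± 0.88 for P1 bladder (limma, adjusted p = 0.020 and 0.040). Cdx2 passed the filter through the whole newborn array alone and so had to differ. The adult call was lost without adult replicate 1 (adjusted p up to 0.064), and the P1 call under median centring, under quantile normalization and without adult replicate 1, P1 replicate 1 or P1 replicate 2 (adjusted p up to 0.14). The other probe set of Cdx2 showed no drop, at 15.3 to 47.0 units in adult bladder, 13.9 to 46.9 units in P1 bladder and 35.7 units in the whole newborn, under the median on every array. Cdx1, its paralog, lay below the median on all 7 arrays. It had 3.91 to 10.9 units in adult bladder, 7.10 to 15.2 units in P1 bladder and 40.4 units in the whole newborn. Cdx1 did not pass the filter of the main fit. Without the filter it was called at neither stage (limma, adjusted p = 0.14 for adult and 0.20 for P1 bladder).

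Across the set, adult and P1 intensities did not overlap for 9 of 29 genes, against 21.9% of all probe sets, with adult bladder higher for 3 and lower for 6. Many of these values were dim. Among the 9, Cpa1, Ctrb1 and Cel lay under the median on every bladder array, and Gkn2 and Guca2a exceeded it on 1 each. The median adult minus P1 difference of the 29 genes was -0.28, while that of all probe sets was 0.00. Besides the probe sets shown, 13 others name these genes. Of the 11 tested, 11 were lower in adult bladder and 10 in P1 bladder, against 6.54% and 4.56% of all tested probe sets, and none was higher. Among these 11, only a probe set of Cela3b lay above the median on any bladder array. The others passed the filter through the whole newborn array alone and so had to differ. Both stages share the whole newborn array, so their differences from it are not independent.

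The patterns over the 7 arrays that were most like those of Lct and Muc13 came from genes outside the set. Among 14146 genes, log2 values of Mllt11 (Pearson r = 0.993), Sall1 (0.990) and Sdhd (0.988) were nearest to Lct, and Elovl2 (0.995), Tmem120a (0.993) and Tnni2 (0.993) to Muc13. Sall1, a developmental zinc finger factor, had 64.0, 44.97 and 55.8 units in adult bladder, 408, 664 and 425 units in P1 bladder and 2212 units in the whole newborn. With 7 arrays in 3 groups, many genes can share such an order, and the values are descriptions. The Muc13 pattern is that of the probe set shown, and its other probe set was not searched.

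Further genes of the same organs were counted beside the listed ones. Among all tested probe sets 6.54% were lower in adult and 4.56% in P1 bladder, and 3.95% and 2.07% were higher. Of 16 other exocrine pancreas genes on the array (23 listed), 11 were tested, of which 8 were lower in adult bladder, 7 in P1 bladder and none higher. Of those 11, 10 passed the filter through the whole newborn array alone and so had to differ, which makes these counts a description. Without the filter 8 of 16 were lower in adult and 7 in P1 bladder, against 5.42% and 4.13% of all probe sets. Among them Zg16, a zymogen granule protein, Rnase1, pancreatic ribonuclease, Pnliprp2, a lipase relative, and Ctrl, a chymotrypsin-like protease, had differences between -4.35 and -5.60 (limma, adjusted p 0.0012 to 0.0057). Of 22 endocrine genes (26 listed), 10 were tested and 2 were lower at both stages, a count too small to be set apart from those shares. Both genes passed the filter through the whole newborn array alone. They were Slc2a2, a glucose transporter also of liver, by -8.06 in adult and -7.53 in P1 bladder, and Neurod1, an endocrine and neural factor, by -2.91 and -3.02 (limma, adjusted p 0.00022 to 0.023). Of 41 other intestinal genes (42 listed), 32 were tested, with 24 lower at each stage and none higher. Of the 32, 11 passed the filter through the whole newborn array alone. Without the filter 26 of 41 were lower in adult and 27 in P1 bladder, against 5.42% and 4.13% of all probe sets. Median centring left 17 and 19 of the 32 lower and quantile normalization 21 and 19, and each added 1 higher call at each stage, Ascl2. The lowest adjusted p belonged to Apoa4, Cps1, Mep1b and Apoa1, which liver or kidney express as well, with differences between -6.85 and -10.3.

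A few of these genes went the other way. Of 17 other stomach genes (19 listed), 10 were tested. Dmbt1, Anxa10 and Chia1 were lower at both stages, while 2 were higher in adult bladder and 1 in P1 bladder. All of the lower genes passed the filter through the whole newborn array alone and so had to differ. The calls of Chia1 were lost under median centring and under quantile normalization, which also called Ctse lower in P1 bladder than in the whole newborn. Ctse encodes cathepsin E, an aspartic protease of gastric surface cells. It had 25187, 34645 and 23169 units in adult bladder, 2330, 2850 and 2818 units in P1 bladder and 5557 units in the whole newborn. Adult bladder was higher than the whole newborn by 2.28 and higher than P1 bladder by 3.34 (limma, adjusted p = 0.0036 and 0.00069), without overlap between stages. Psca, a surface protein known from stomach, prostate and bladder, had 838, 1217 and 1155 units in adult bladder, 2047, 2316 and 2285 units in P1 bladder and 27.9 units in the whole newborn. It was higher than the whole newborn by 3.85 in adult and 4.88 in P1 bladder (limma, adjusted p = 0.00097 and 0.00047).

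The intestinal list also held the stage calls Slc5a1 and Clca1, named after their values were seen. Slc5a1, the sodium glucose cotransporter, had 913, 723 and 722 units in adult bladder, 229, 230 and 220 units in P1 bladder and 2798 units in the whole newborn, so that adult bladder was higher than P1 by 1.59 (limma, adjusted p = 0.021). Clca1, a secreted goblet cell protein, had 509, 10.6 and 306 units in adult bladder, 5845, 2740 and 2030 units in P1 bladder and 3435 units in the whole newborn, with adult bladder lower than P1 by -3.83 (limma, adjusted p = 0.018). Clca1 and Lct were thus both higher in P1 bladder, while Slc5a1 was higher in adult bladder. The gland-rich adult replicates 1 and 3 had more Clca1 than replicate 2, and the part of gland transcripts was not tested. How the calls of Slc5a1 and Clca1 hold with 1 array left out is not given here.

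Genes shared by endodermal epithelia in general were mostly above the median in bladder. Of 24 such genes on the array (26 listed), all tested, 17 were so on all 6 bladder arrays, against 38% of all probe sets. Krt7, Krt8, Krt18 and Krt19 were also in the list of urothelial markers, so the counts of these lists are not independent. In adult bladder 7 were higher than in the whole newborn and 3 lower, against 3.95% and 6.54% of all tested probe sets. In P1 bladder 7 were higher and 2 lower, against 2.07% and 4.56%. Krt7, Krt18 and Krt19, keratins of simple and transitional epithelia, Shh, the hedgehog ligand, Foxa1, a forkhead factor, and Tspan8, a tetraspanin, were higher at both stages. Gata5 was added in adult and Krt8 in P1 bladder, and median centring raised the higher calls to 11 at each stage. Foxa3 and Onecut2, factors of liver and pancreas, were lower at both stages and Prox1 in adult bladder, although centring left no lower call in P1 bladder. Of the 24 genes, 3 passed the filter through the whole newborn array alone, Foxa3 among them, and so had to differ.

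Foxa1 had 26486, 36706 and 24913 units in adult bladder, 21269, 25253 and 20651 units in P1 bladder and 2502 units in the whole newborn. Shh had 42684, 39330 and 37893 units in adult bladder, 32032, 36196 and 36846 units in P1 bladder and 3351 units in the whole newborn. For both genes every bladder array lay above the whole newborn. Their differences for adult and P1 bladder were 3.51 and 3.13 for Foxa1 and 3.56 and 3.36 for Shh (limma, adjusted p 0.00016 to 0.00076). Krt7, at 3.97 and 4.06, and Tspan8, at 2.18 and 2.68, were called as well (limma, adjusted p 0.00019 to 0.0015). Foxa3, the relative of Foxa1 in liver and gut, ranged over 29.1 to 69.0 units in adult bladder and 64.6 to 147 units in P1 bladder, with 1231 units in the whole newborn.

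**Figure D4:**
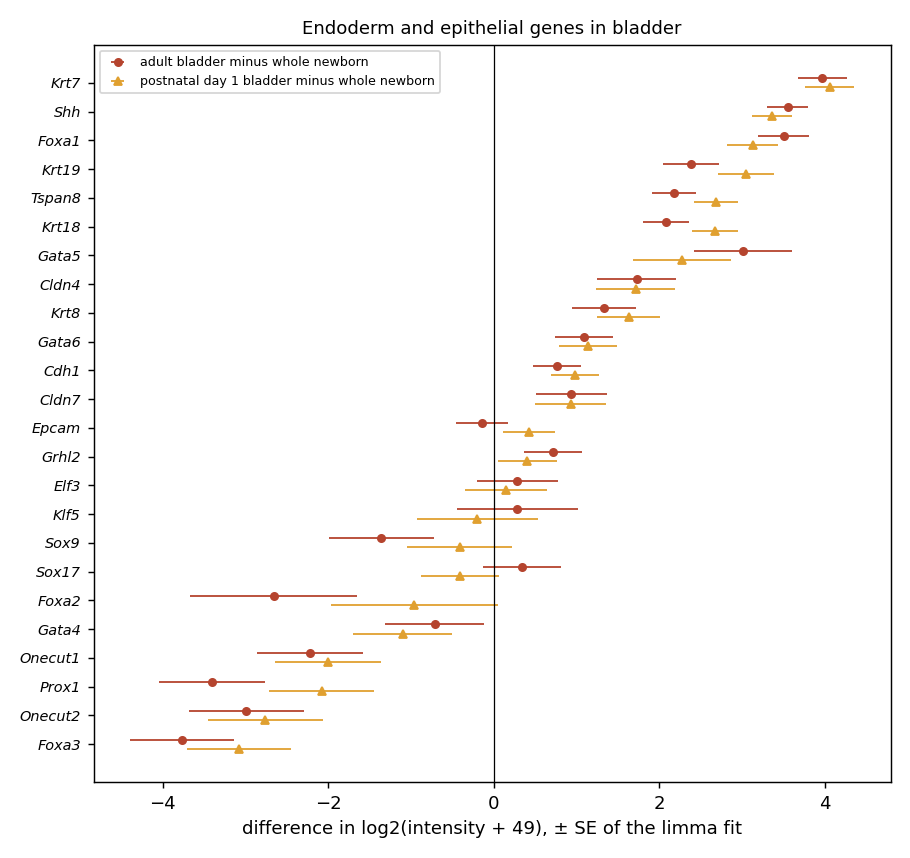
Difference of 24 endoderm and epithelial genes from the whole newborn in log2(intensity + 49), with circles for adult bladder, triangles for P1 bladder and bars of ± 1 SE of the limma fit, ordered by the P1 difference. Krt7, Shh and Foxa1 lie above 3 at both stages, and Foxa3, Onecut2 and Prox1 lie lowest.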

How the data were processed

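Intensities of 7 arrays were taken from the authors' deposited table, with 64 control probe sets of 45101 left out. Per the submitters' processing notes the software was GCOS; how probes were summarised is not given in the sources used here. Each array's mean intensity, trimmed by 2% at both ends, came to 1500.01, a common scaling by the authors, and no further centring was applied. Of 45037 probe sets, 34945 name 1 gene, 932 several and 9160 none.

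log2(intensity + 49) was fitted in R 4.3.3 with limma 3.58.1, using lmFit and trended eBayes; the added 49 is the rounded 20th percentile over the whole table. Comparisons with the whole newborn used 7 arrays in 3 groups and probe sets above the array median on at least 1 array (29955). The stages were compared on 6 arrays, with at least 3 above the median (23304). Two-sided p-values were adjusted by Benjamini-Hochberg over all tested probe sets, with a threshold of 0.05. The script was tested on simulated data. The number of arrays limits the precision.

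Genes with values on every array were those called in any comparison, by adjusted p, at most 20; Tff1, Cdx2 and Cela1 were added after their values were seen. Of other lists, up to 4 called genes by adjusted p are given; Gata5, Krt8, Krt18, Krt19, Foxa3, Onecut2, Prox1, Chia1, Slc5a1 and Clca1 were named after their values were seen. The genes and lists were chosen with earlier results of these data known. Alternatives covered the pseudocount, the scaling, the filter, the variance model, the arrays fitted and the probe set; leaving out an array without the filter was chosen after seeing the data. Promoters are from the RefSeq table for GRCm38.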

Additional observations from a re-analysis of the deposited data

How the results depend on the processing

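No paired analysis was possible because the labels give no replicate numbers shared between groups. The count of genes lower in adult bladder than in the whole newborn was 22 and stayed between 18 and 24 under the alternatives for pseudocount, scaling, filter, variance model and probe set, but was 14 without adult replicates 1 and 3, where 1 adult array was left. Leaving out 1 array gave 18 to 23. For P1 bladder the count was 21 and ranged from 15 to 23, with 17 to 21 on leaving out 1 array. The stage comparison called 1 gene, or 2 if every probe set was kept. It called 0 when the 70th percentile set the filter or without adult replicate 2 and P1 replicate 3, where Lct was not tested. Leaving out 1 array gave 0 to 2. Genes above the limit on all adult arrays were 2, or 5 with the 40th percentile as the limit, and on all P1 arrays 5, or 3 with the 60th percentile. Median centring turned the Cela1 difference between adult bladder and whole newborn to 0.26. The Muc2 stage difference, near 0, changed sign to -0.00082 with the larger pseudocount, -0.010 with median centring, -0.019 with quantile normalization, -0.038 without adult replicate 2 and -0.16 without P1 replicate 2; leaving out 1 array gave -0.16 to 0.091. In P1 bladder the calls of Cdx2 and Gcg were each lost under 6 alternatives, that of Cdh17 under 5 and also when every probe set was kept, of Gkn1 under 4, and of Lct and Vil1 under 1 each (limma, adjusted p 0.052 to 0.14). In adult bladder that of Guca2a was lost under 6, of Tff1 under 4, of Gkn1 under 3, of Cdx2 under 2 and of Gcg under 1 (0.051 to 0.24). The pseudocount at the 5th percentile was among them for Cdx2, Gcg, Gkn1, Cdh17, Vil1 and Guca2a. Over all probe sets, calls numbered 3141 for adult bladder against whole newborn (826 to 5797 over the alternatives), 1986 for P1 bladder against whole newborn (977 to 4040) and 1829 for adult against P1 bladder (434 to 2219). Both ends came with arrays left out. The lowest counts were those without adult replicates 1 and 3, or, for P1 bladder, when its 3 arrays were fitted with the whole newborn alone, and the highest those without adult replicate 2, with P1 replicate 3 also left out in the comparisons with the whole newborn. The causes were not tested. The order among the dimmest values, under the array median, calls for caution, because no detection calls were available.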

Other observations

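Some genes of the endocrine and intestinal lists gave a bladder signal without a call and were picked after their values were seen. Isl1, a homeodomain factor of islets and of other tissues, had 3951, 613 and 2430 units in adult bladder, 6439, 4916 and 3712 units in P1 bladder and 2541 units in the whole newborn. Chgb, a granin of secretory vesicles in endocrine cells and neurons, had 730, 104 and 862 units in adult bladder, 2614, 4492 and 775 units in P1 bladder and 3743 units in the whole newborn. Krt20, a keratin of intestinal and superficial urothelial cells, had 1799, 2850 and 1404 units in adult bladder, 1001, 2188 and 2043 units in P1 bladder and 950 units in the whole newborn. The stage differences of these genes, adult minus P1, were -1.40, -2.17 and 0.22 (limma, adjusted p = 0.18, 0.12 and 0.79), and adult replicate 2 was the lowest bladder array for Isl1 and Chgb.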
